A study of Mus musculus with 9 samples.

Results

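The genes described here are 9 members of the transforming growth factor beta (TGF-beta) pathway: the ligand Tgfb1, the receptors Tgfbr1 and Tgfbr2, the signal carriers Smad2, Smad3 and Smad4, the brakes Smad7 and Ski, and Tgfbi, a matrix protein named for its induction by TGF-beta. They were chosen by symbol, all 9 were found among the 38926 symbols of the count tables, and all 9 were among the 12663 genes that passed the filter on low counts. The cells were a murine acute myeloid leukaemia that carries the MLL-AF9 fusion and had been transplanted through 3 rounds of mice. In 1 group they were transduced with shRNA-1 against Syncrip, in another with shRNA-2 against Syncrip and in the third with a control hairpin, and RNA was taken at day 4, with 3 libraries per group. SYNCRIP, an hnRNP, binds RNA. The sample labels call the control hairpin scrambled, while the design text of the series speaks of one against luciferase. All groups, controls included, carry the fusion and a hairpin, and the labels name the same leukaemia for all. Whether the cells came from separate mice is not stated in the labels. The design text says that each of the 9 was transduced and handled separately. The p-values below measure the spread between these cultures.

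TGF-beta is secreted in a latent form and, once freed, binds the type II receptor TGFBR2, which then activates the type I receptor TGFBR1. TGFBR1 phosphorylates SMAD2 and SMAD3, which enter the nucleus with SMAD4 and switch genes on or off. SMAD7 blocks the receptors, and SKI sits on SMADs at DNA and recruits repressors. In blood formation the pathway is known for holding stem cells quiet and for its part in the growth arrest and maturation of myeloid cells.

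The libraries held between 9559638 and 19483923 counts. Syncrip was at 20.1, 15.9 and 17.4 CPM (counts scaled to library size) with shRNA-1 and at 63.2, 46.3 and 60.5 CPM with shRNA-2, against 241, 231 and 207 CPM in the controls. The knockdown libraries all lay below all controls, and those with shRNA-1 were lowest. The library sizes were adjusted by the trimmed mean of M values (TMM). Of 13 markers of MLL-AF9 myeloid leukaemia in the tables, all had a mean of at least 1 CPM over the 9 libraries. They summed to 2080 to 2180 CPM with shRNA-1 and to 1730 to 1930 CPM with shRNA-2, against 2040 to 2190 CPM in the controls. Single markers moved within this sum: 2 rose and 8 fell with shRNA-1, and 1 rose and 7 fell with shRNA-2. Named after their values were seen, Mpo averaged 526 CPM with shRNA-1 and 8.64 CPM with shRNA-2, against 21.1 CPM in the controls, and Kmt2a averaged 33.4 and 32.7 CPM, against 144 CPM. Cd34 averaged 27.9 CPM with shRNA-1 and 101 CPM with shRNA-2, against 142 CPM in the controls. The share of counts under 3 genes read as ribosomal RNA lay between 12.0% and 19.3% with shRNA-1 and between 6.10% and 15.8% with shRNA-2, against 4.77% to 8.29% in the controls. Markers of monocytes and macrophages, 20 genes in the tables, summed to 1560 to 2760 CPM with shRNA-1 and to 2430 to 4230 CPM with shRNA-2, against 1070 to 1440 CPM in the controls. Of the 17 tested, 4 rose and 1 fell with shRNA-1, and 14 rose and 0 fell with shRNA-2. Of all tested genes, 17.4% rose and 17.3% fell with shRNA-1, and 24.4% rose and 24.2% fell with shRNA-2. Of these markers 0 were without a count, and the largest was Lyz2, at a mean of 1140 CPM over the 9 libraries. The 10 markers of megakaryocytes and platelets summed to 6.7 to 9.87 CPM with shRNA-1 and to 44.9 to 53.2 CPM with shRNA-2, against 10.3 to 13.5 CPM in the controls. The largest of them was Itgb3. Fibroblast markers summed to 1.54 to 2.76, 2.83 to 3.5 and 4.41 to 7.16 CPM in the shRNA-1, shRNA-2 and control libraries, with Col3a1, Dcn, Lum and Pdgfra at 0. Lymphoid markers summed to at most 17.9 CPM in any library, with Cd3g, Cd8a, Cd79a and Ncr1 at 0. Erythroid markers summed to 387 to 460 CPM with shRNA-1 and to 216 to 242 CPM with shRNA-2, against 240 to 260 CPM in the controls, the largest being Tfrc. The part of these cell types in the results below was not tested, and in bulk RNA fewer cells of a type and less RNA per cell cannot be told apart.

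The pathway genes did not move as a block. With shRNA-2 the receptor Tgfbr2, the repressor Ski and the target Tgfbi rose. With shRNA-1 Tgfbr2 and Tgfbi rose by less, Tgfbr1 rose and the ligand Tgfb1 fell, and these shRNA-1 calls were less stable. None of the 4 SMAD genes passed the test in any comparison. A gene was called when the adjusted p of edgeR's quasi-likelihood test, fitted on all genes, was below 0.05. With shRNA-1, 3 members rose and 1 fell, which is 44.4% of the 9, against 34.7% of all tested genes (17.4% higher and 17.3% lower). With shRNA-2, 3 rose and 0 fell, 33.3% of the 9, against 48.7% of all tested genes (24.4% higher and 24.2% lower). Under both hairpins 2 members passed with the same sign, Tgfbr2 and Tgfbi, each higher, 22.2% of the 9, against 18.8% of all genes (9.24% higher and 9.57% lower). Between the hairpins, 1 member was higher and 3 were lower with shRNA-1 than with shRNA-2, 44.4% of the 9, against 41.0% of all genes (19.7% higher and 21.3% lower). These shares are near those of the whole transcriptome, so the counts do not set the pathway apart. The median log2 fold change of the 9 was 0.45 with shRNA-1 and 0.26 with shRNA-2, against 0.023 and 0.0043 over all tested genes.

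**Figure D1:**
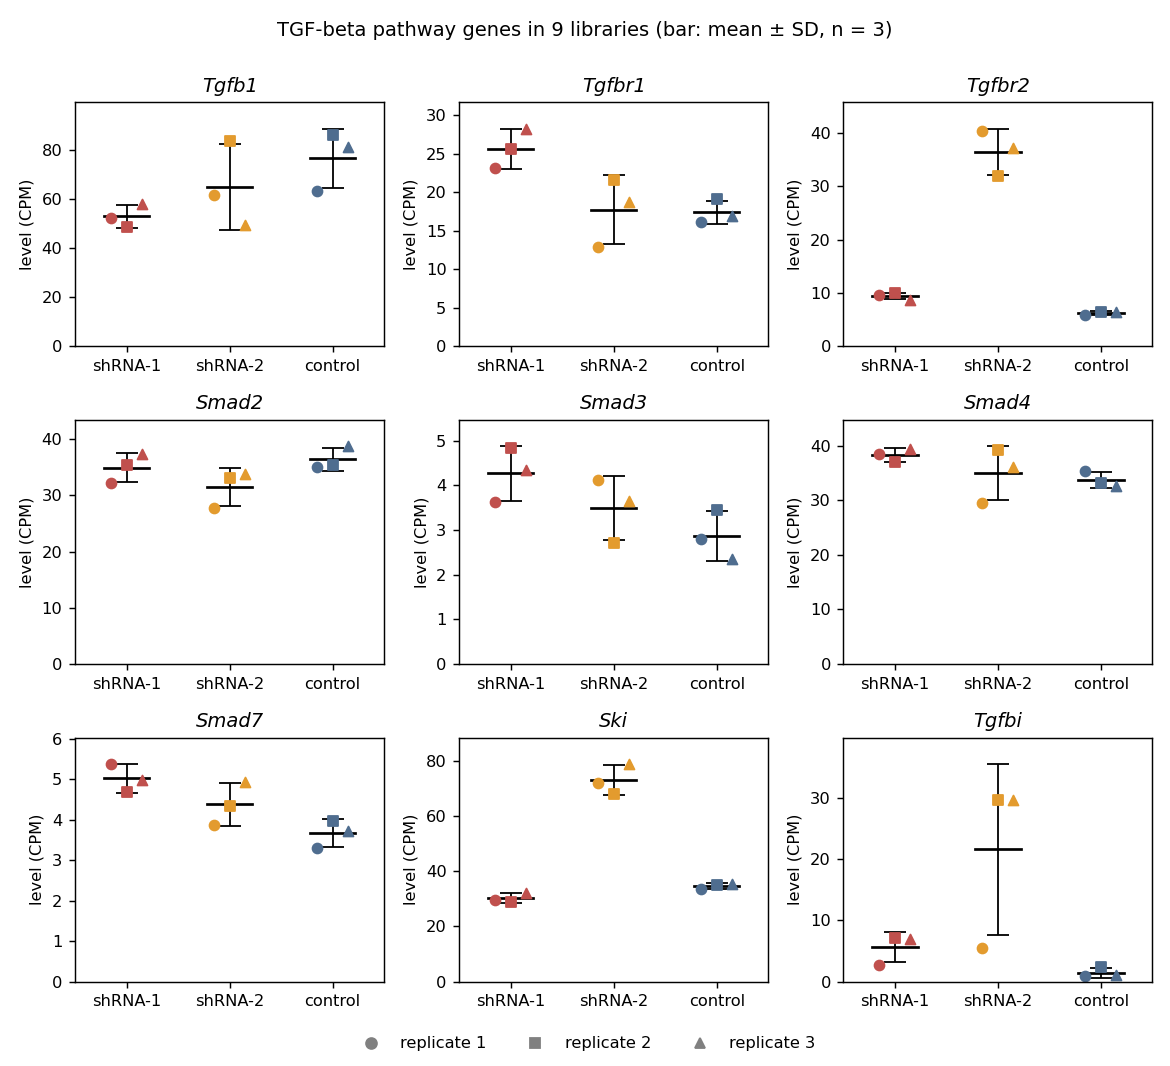
Level of each of the 9 genes in each library (vertical axis, CPM, TMM-scaled, each panel with its own scale from 0) by group. Points are libraries and the bars show mean ± SD (n = 3). Tgfbr2 and Ski stand high in all 3 shRNA-2 libraries, and Tgfbi is high in shRNA-2 replicates 2 and 3 and at 5.46 CPM in replicate 1.

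The ligand gene Tgfb1 (chromosome 7, 25687002 to 25705077 on GRCm38, the assembly of mm10) was at 52.1, 48.6 and 57.9 CPM with shRNA-1 and at 61.4, 83.5 and 49.3 CPM with shRNA-2, against 63.0, 85.7 and 81.0 CPM in the controls. All shRNA-1 libraries lay below all controls, and the shRNA-2 libraries spread across both ranges. It fell by 0.53 on the log2 scale with shRNA-1 (standard error 0.19, edgeR adjusted p = 0.0427), and its value with shRNA-2 was -0.24 ± 0.18 (adjusted p = 0.299). The difference between the hairpins was -0.29 ± 0.19 (edgeR adjusted p = 0.233), so the data do not separate them. Leaving out any 1 of the 3 shRNA-1 libraries, or 1 of control replicates 2 and 3, ended the shRNA-1 call (highest adjusted p = 0.136). With a covariate for the ribosomal RNA share the value was -0.78 and missed the threshold (adjusted p = 0.0770). This share was higher in every shRNA-1 library than in every control, so such a fit cannot cleanly tell hairpin and share apart. With shRNA-2, Tgfb1 passed as lower without shRNA-2 replicate 2 (0.0350) and with scaling to total counts (0.0343).

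Both receptor genes passed the test with shRNA-1, and Tgfbr2 passed with shRNA-2 as well. Tgfbr1, the type I receptor that carries the signal to the SMADs (chromosome 4, 47353222 to 47414931), was at 23.1, 25.6 and 28.2 CPM with shRNA-1 and at 12.8, 21.6 and 18.8 CPM with shRNA-2, against 16.2, 19.1 and 16.8 CPM in the controls. The shRNA-1 libraries were above all others, and the shRNA-2 libraries lay on both sides of the controls. With shRNA-1 the log2 rise was 0.56 ± 0.18 (edgeR adjusted p = 0.0293). The shRNA-2 value was 0.03 ± 0.18 (adjusted p = 0.914). The 2 effects differed by 0.54 ± 0.18 (edgeR adjusted p = 0.0316). The shRNA-1 call ended when any of 4 libraries was left out, namely replicates 2 and 3 of shRNA-1 and replicates 1 and 3 of the controls (highest adjusted p = 0.101). It also ended with total-count scaling (0.154) and with the ribosomal RNA covariate (log2 fold change 0.12, adjusted p = 0.750). Likewise the hairpin difference ended without replicate 2 or 3 of shRNA-1 or replicate 1 or 3 of shRNA-2 (highest adjusted p = 0.102), in a fit of the 2 knockdown groups alone (0.0743) and with the covariate (0.117).

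Tgfbr2, the type II receptor that binds the ligand first (chromosome 9, 116084293 to 116175360), was at 9.55, 9.98 and 8.77 CPM with shRNA-1 and at 40.4, 31.9 and 37.2 CPM with shRNA-2, against 5.93, 6.50 and 6.41 CPM in the controls. The groups did not overlap: shRNA-2 was highest, shRNA-1 lay between, and the controls were lowest. Its level was higher with shRNA-1 (log2 fold change 0.59 ± 0.14, edgeR adjusted p = 0.00894) and 5.82-fold higher with shRNA-2 (2.54 ± 0.14, adjusted p = 5.96e-07). The shRNA-1 effect minus the shRNA-2 effect was -1.95 ± 0.14 (edgeR adjusted p = 2.23e-06). For Syncrip itself this difference was -1.68 ± 0.15 (edgeR adjusted p = 9.67e-06), the fall being deeper with shRNA-1. The shRNA-1 rise was lost only with scaling to total counts (0.34, adjusted p = 0.170), among the alternatives run, and it held with the ribosomal RNA covariate (0.83, adjusted p = 0.0186). The sums of the monocyte and megakaryocyte markers were also highest with shRNA-2, and their part in the rise of Tgfbr2 was not tested.

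Ski and Tgfbi, a repressor and a target of the pathway, also rose with shRNA-2, so the promoter windows of the 3 genes that rose with this hairpin are shown here. Each runs from 250 bases before to 50 bases from the gene start in RefSeq on GRCm38.p6, 5′ to 3′ on the strand of the gene. This start differs from that of the gene positions printed in this report, which come from GENCODE. They lie at chr9:116175314-116175613 (minus strand), chr13:56609336-56609635 (plus strand) and chr4:155222486-155222785 (minus strand). Capitals mark the SMAD box CAGAC on either strand, the short motif that SMAD3 and SMAD4 contact.
Tgfbr2: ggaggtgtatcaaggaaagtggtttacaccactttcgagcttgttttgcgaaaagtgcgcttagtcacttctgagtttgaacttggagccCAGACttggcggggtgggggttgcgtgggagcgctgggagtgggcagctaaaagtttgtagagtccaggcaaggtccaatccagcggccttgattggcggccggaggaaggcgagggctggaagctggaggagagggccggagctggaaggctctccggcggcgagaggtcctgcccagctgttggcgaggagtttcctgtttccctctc
Tgfbi: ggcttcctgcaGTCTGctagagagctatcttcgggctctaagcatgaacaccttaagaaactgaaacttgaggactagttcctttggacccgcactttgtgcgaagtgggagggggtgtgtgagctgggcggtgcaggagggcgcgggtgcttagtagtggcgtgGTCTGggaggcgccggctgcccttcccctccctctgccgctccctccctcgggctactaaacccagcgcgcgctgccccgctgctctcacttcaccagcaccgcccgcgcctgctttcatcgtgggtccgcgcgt
Ski: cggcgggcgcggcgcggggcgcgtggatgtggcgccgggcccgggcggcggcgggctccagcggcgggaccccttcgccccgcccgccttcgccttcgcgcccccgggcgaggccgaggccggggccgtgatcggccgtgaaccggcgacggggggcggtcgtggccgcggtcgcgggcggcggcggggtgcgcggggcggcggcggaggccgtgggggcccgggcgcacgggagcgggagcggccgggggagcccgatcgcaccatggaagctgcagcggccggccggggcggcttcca

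The Tgfbr2 window held 1 SMAD box, beginning 160 bases before the RefSeq start. The Tgfbi window held 2, beginning 239 and 85 bases before it, both as GTCTG on the printed strand. In the Ski window, which has a GC content of 85.3% against 59.0% for Tgfbr2 and 63.3% for Tgfbi, these letters were not found. Of 32851 windows of 300 bases, 49.6% hold a SMAD box, so a match is common and describes the letters alone. Neither the AP-1 site TGANTCA (7.81% of windows) nor the letters GGAAGT (23.8%), searched on both strands, were found in these 3 windows. GGAAGT is a narrow form of the ETS site. Its shorter core GGAA was not searched and does stand in the printed windows, so absence of an ETS site is not shown.

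Ski, which holds SMAD targets off (chromosome 4, 155154075 to 155222592), was at 29.5, 28.7 and 32.2 CPM with shRNA-1 and at 71.8, 68.1 and 78.9 CPM with shRNA-2, against 33.4, 35 and 35.3 CPM in the controls. The shRNA-2 libraries were well above all others, and the shRNA-1 libraries were slightly below the controls without overlap. Its level was 2.11-fold higher with shRNA-2 (log2 fold change 1.08 ± 0.11, edgeR adjusted p = 1.77e-05). With shRNA-1 the value was -0.20 ± 0.11 (adjusted p = 0.198), and it passed as lower only with total-count scaling (-0.45, adjusted p = 0.0232). The difference between the hairpins, -1.27 ± 0.11 (edgeR adjusted p = 9.22e-06), held in all 17 alternatives. 

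Tgfbi, a secreted adhesion protein of the extracellular matrix that macrophages also make (chromosome 13, 56609523 to 56639562), was at 2.75, 7.07 and 7.01 CPM with shRNA-1 and at 5.46, 29.7 and 29.6 CPM with shRNA-2, against 0.862, 2.39 and 1.06 CPM in the controls. Every knockdown library was above every control, and replicate 1 was the lowest of its group with each hairpin. The control values rest on 17, 36 and 24 reads. Its level was 4.10-fold higher with shRNA-1 (log2 fold change 2.04 ± 0.65, edgeR adjusted p = 0.0304) and 15.5-fold higher with shRNA-2 (3.95 ± 0.62, adjusted p = 0.000318). The hairpins differed by -1.92 ± 0.56 (edgeR adjusted p = 0.0162). The rise with shRNA-1 failed the test when replicate 2 or 3 of shRNA-1 or replicate 1 or 3 of the controls was left out (highest adjusted p = 0.106), and with the ribosomal RNA covariate it was 0.56 (adjusted p = 0.654). The hairpin difference failed it when replicate 1 of shRNA-1 or replicate 2 or 3 of shRNA-2 was left out (highest adjusted p = 0.0648). The shRNA-2 rise ranged over 3.65 to 4.47 with any 1 library left out and was 3.02 with the covariate (adjusted p = 0.00119).

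**Figure D2:**
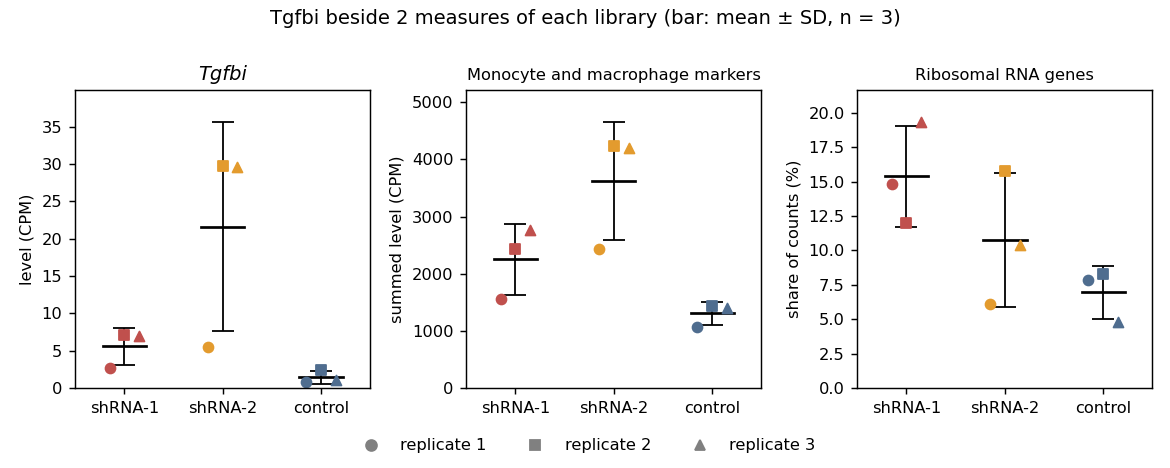
Tgfbi (left, CPM), the summed level of 20 markers of monocytes and macrophages (middle, CPM) and the share of counts under 3 ribosomal RNA genes (right, %) in each library, by group. Points are libraries and bars show mean ± SD (n = 3). With both hairpins replicate 1 has the lowest Tgfbi and the lowest marker sum of its group, at 1560 CPM with shRNA-1 and 2430 CPM with shRNA-2.

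The sum of the monocyte and macrophage markers differed within the groups too. With shRNA-1 it was 1560, 2440 and 2760 CPM in replicates 1, 2 and 3, with shRNA-2 it was 2430, 4230 and 4200 CPM, and the controls were at 1070, 1440 and 1410 CPM. In each group the library with the lowest Tgfbi also had the lowest marker sum. Lyz2 alone, at a mean of 1140 CPM, weighs most in this sum. The part of the sum in the change of Tgfbi was not tested.

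The SMAD genes were measured in all libraries and passed the test in none of the 3 comparisons. Smad2, which TGFBR1 phosphorylates (chromosome 18, 76241580 to 76310963), was at 32.2, 35.4 and 37.3 CPM with shRNA-1 and at 27.7, 33.0 and 33.7 CPM with shRNA-2, against 35.1, 35.5 and 38.8 CPM in the controls. Its values were -0.06 ± 0.12 with shRNA-1 and -0.21 ± 0.12 with shRNA-2 (edgeR adjusted p = 0.741 and 0.172). All shRNA-2 libraries lay below all controls, and with total-count scaling Smad2 passed as lower with shRNA-2 (-0.44, adjusted p = 0.0155). Smad4, the partner that SMAD2 and SMAD3 share (chromosome 18, 73639009 to 73703780), ranged over 37.0 to 39.4 CPM with shRNA-1 and 29.5 to 39.3 CPM with shRNA-2, against 32.6 to 35.3 CPM in the controls. Its values were 0.18 ± 0.13 and 0.05 ± 0.13 (edgeR adjusted p = 0.280 and 0.758), and both turned negative with total-count scaling (-0.06 and -0.17). The shRNA-1 libraries of Smad4 were above all controls, and the shRNA-2 libraries spread around them.

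Smad3, the other SMAD that the receptor activates (chromosome 9, 63646767 to 63757994), was at 3.62, 4.84 and 4.34 CPM with shRNA-1 and at 4.11, 2.71 and 3.64 CPM with shRNA-2, against 2.79, 3.45 and 2.34 CPM in the controls. The shRNA-1 libraries lay above the controls and the shRNA-2 libraries overlapped both groups. The values were 0.59 ± 0.24 and 0.30 ± 0.24 (edgeR adjusted p = 0.0784 and 0.323). Smad3 had 33 to 67 reads per library. The inhibitor Smad7 (chromosome 18, 75367529 to 75395935) is itself a known target of SMAD3 and SMAD4 and feeds back on the receptors. It was at 5.38, 4.68 and 4.98 CPM with shRNA-1 and at 3.87, 4.33 and 4.92 CPM with shRNA-2, against 3.30, 3.98 and 3.71 CPM in the controls. Its values were 0.45 ± 0.20 and 0.26 ± 0.19 (edgeR adjusted p = 0.0939 and 0.295), from 49 to 84 reads per library. All shRNA-1 libraries of Smad7 were above all controls, and the shRNA-2 libraries overlapped both groups. Of these 4 genes, differences between the hairpins ran from 0.13 to 0.29 with standard errors from 0.12 to 0.24 (edgeR adjusted p from 0.352 to 0.459).

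**Figure D3:**
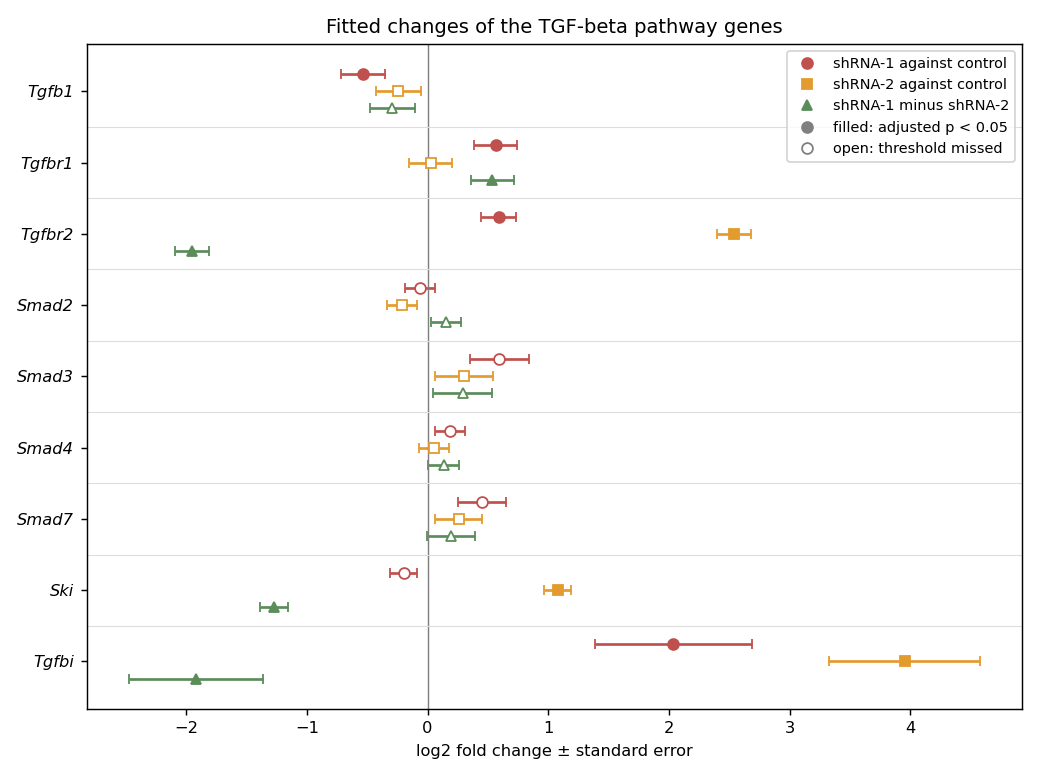
Log2 fold change ± standard error (horizontal axis) of each gene for shRNA-1 against control, shRNA-2 against control and shRNA-1 minus shRNA-2, from edgeR. Filled symbols passed an adjusted p of 0.05. Tgfbr2, Ski and Tgfbi lie far to the right for shRNA-2, at 2.54, 1.08 and 3.95, and the 4 SMAD genes have open symbols, between -0.21 and 0.59.

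The calls differed in how well they held. With shRNA-2 all 3 calls held in each of the 17 alternatives, 9 of which left out 1 library. With shRNA-1, 1 of 4 calls, that of Tgfbr2, held without any 1 library, and 0 of 4 held in all 17. Between the hairpins, 2 of 4, those of Tgfbr2 and Ski, held in all 17.

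**Figure D4:**
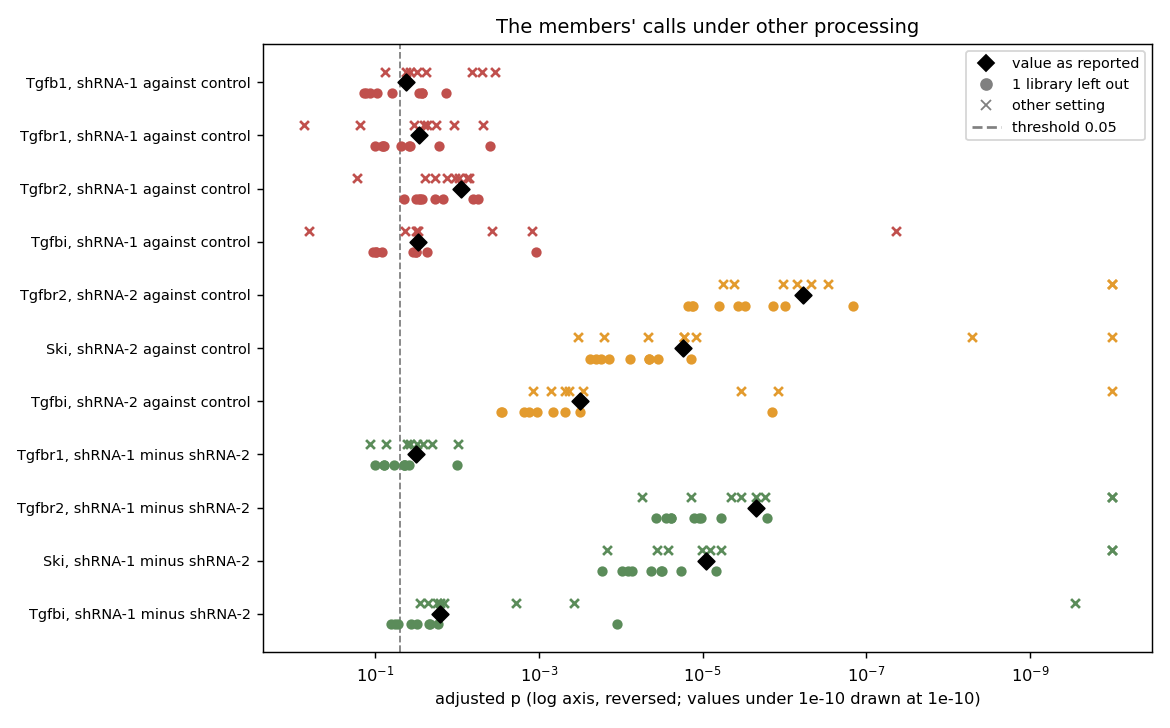
Adjusted p (horizontal log axis, smaller to the right) of each call among the 9 genes: as reported (black diamonds), with 1 library left out (circles) and under the other alternatives (crosses), with the threshold of 0.05 dashed and values under 1e-10 drawn at 1e-10. The shRNA-2 calls of Tgfbr2, Ski and Tgfbi stay right of the line, the highest being 0.00289 for Tgfbi, while circles of Tgfb1, Tgfbr1 and Tgfbi with shRNA-1 lie on both sides of it.

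Scaling bears on the smaller of these values. With total counts in place of TMM, the median of all tested genes moved to -0.23 with shRNA-1, and to -0.21 with shRNA-2. The share of higher genes among the calls was then 23.8% with shRNA-1, against 50.1% with TMM, and 33.6% with shRNA-2, against 50.2% with TMM. All changes given here are relative to the bulk of the genes.

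The genes whose levels followed those of a member most closely were sought among up to 8682 genes with a mean of at least 5 CPM, by Pearson's r of log2 CPM over the 9 libraries. The libraries form 3 groups with shared controls, so such an r can restate the order of the groups and is given as a description. Creb5 (r = 0.997), of the ATF and CREB transcription factors, and Eepd1 (0.993) were most like Tgfbr2. Creb5 was at 8.68, 8.91 and 6.09 CPM with shRNA-1 and at 83.0, 55.8 and 64.0 CPM with shRNA-2, against 4.36, 3.91 and 4.20 CPM in the controls. Gas7 (0.993) and the transglutaminase Tgm2 (0.992) were most like Ski, each high with shRNA-2 alone. Lgals3 (0.983), the galectin of activated macrophages, and Spcs1 (0.982), a part of the signal peptidase, were most like Tgfbi. Lgals3 was at 632, 896 and 949 CPM with shRNA-1 and at 942, 2224 and 1987 CPM with shRNA-2, against 388, 457 and 458 CPM in the controls. For Tgfb1 they were Snai3 (0.948) and Nelfb (0.918), and for Tgfbr1 Rps27l (0.985) and Adprm (0.980). For Smad2 they were Dda1 (0.960) and Cops4 (0.944), for Smad3 Rpl30 (0.918) and Msn (0.908), for Smad4 Atp5o (0.965) and Rpl22 (0.962), and for Smad7 Dhx35 (0.916) and Aldh3a2 (0.907).

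The rest of the pathway was followed in 5 gene lists drawn from general knowledge. Among ligands and the proteins that free or trap them, 11 of 29 genes with a symbol were tested. With shRNA-1, 3 rose and 3 fell, with shRNA-2, 4 rose and 1 fell, and 3 rose with both. Of all tested genes, 17.4% rose and 17.3% fell with shRNA-1, 24.4% rose and 24.2% fell with shRNA-2, and 9.24% rose and 9.57% fell with both, and the counts of each list are to be read against these shares. The lists count Tgfb2, Tgfbr3 and Pmepa1 as rises with shRNA-2. These genes passed the filter on low counts only through the shRNA-2 libraries, so their rises are no support. Other genes of the lists were not checked for this. The medians of the ligand list were -0.62 and 0.36, against 0.023 and 0.0043 over all genes. Thbs1, thrombospondin, which can free latent TGF-beta, was at 392 ± 124 CPM with shRNA-1 and 816 ± 269 CPM with shRNA-2, against 86.9 ± 5.88 CPM in the controls (mean ± SD, n = 3 each). Its rises were 2.17 ± 0.26 and 3.23 ± 0.27 (edgeR adjusted p = 0.000215 and 4.51e-06). Itgav, the integrin chain that binds the latent complex, had log2 rises of 0.98 ± 0.17 and 1.73 ± 0.17 (edgeR adjusted p = 0.00129 and 1.05e-05), and no knockdown library overlapped the controls. Fstl3, which binds activins, fell by 1.07 with shRNA-1 (edgeR adjusted p = 0.00213). Its shRNA-2 value was -0.23 ± 0.19 (adjusted p = 0.332), and the effects differed by -0.84 ± 0.20 (edgeR adjusted p = 0.00620). Inhba, an activin subunit, fell by 1.04 with shRNA-2 (edgeR adjusted p = 0.0199), a call lost without shRNA-2 replicate 2 (0.0722), control replicate 3 (0.138) or with the ribosomal RNA covariate (0.118). Its shRNA-1 value was -0.62 ± 0.32 (adjusted p = 0.160).

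Among other receptors of the family, 10 of 17 were tested. With shRNA-1, 4 rose and 0 fell, with shRNA-2, 5 rose and 0 fell, and 3 rose with both (of all genes 17.4%, 24.4% and 9.24% rose), at medians of 0.46 and 0.55. Of the shRNA-2 rises, Tgfbr3 passed the filter on low counts only through the shRNA-2 libraries. Acvrl1, the type I receptor ALK1 known from endothelial cells and macrophages, was at 13.6, 24.7 and 33.4 CPM with shRNA-1 and at 26.8, 33.6 and 39.9 CPM with shRNA-2, against 4.36, 6.76 and 7.21 CPM in the controls. All 6 knockdown libraries were above the controls, and its rises were 1.97 ± 0.30 and 2.45 ± 0.30 (edgeR adjusted p = 0.000778 and 5.28e-05). Bambi, a receptor without a kinase that dampens the signal, had rises of 0.65 and 0.56 (edgeR adjusted p = 0.0232 and 0.0324). Both were lost without control replicate 2 or 3 or with the covariate, and with total counts (0.102 and 0.153). The shRNA-1 call of Bambi also ended without replicate 2 or 3 of shRNA-1, and the shRNA-2 call without replicate 2 or 3 of shRNA-2. Acvr1b, an activin receptor, rose with shRNA-2 by 0.55 (edgeR adjusted p = 0.0161), a call lost without control replicate 1 (0.0535) and with total counts (0.163).

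Among other SMADs and SMAD partners, 18 of 22 were tested. With shRNA-1, 1 rose and 8 fell, with shRNA-2, 2 rose and 7 fell, and 5 fell with both (of all genes 17.3%, 24.2% and 9.57% fell), at medians of -0.22 and -0.18. Sptbn1, a spectrin that brings SMAD3 and SMAD4 to the receptor, was at 85.9 ± 1.51 CPM with shRNA-1 and 99.3 ± 29.8 CPM with shRNA-2, against 172 ± 14.9 CPM in the controls (mean ± SD, n = 3 each). The log2 changes were -0.999 and -0.79 (edgeR adjusted p = 0.00214 and 0.00420), and the covariate ended the shRNA-1 call (0.106). Runx3, a transcription factor that binds SMADs, fell by 0.99 with shRNA-1 and by 0.54 with shRNA-2 (edgeR adjusted p = 0.00166 and 0.0237). The covariate ended both calls of Runx3 (0.0802 and 0.0663), and leaving out replicate 2 or 3 of shRNA-2 or replicate 1 or 2 of the controls ended the shRNA-2 one (highest 0.0809). Zeb2, a repressor that binds SMADs, fell by 0.52 and 0.59 (edgeR adjusted p = 0.0124 and 0.00379), the shRNA-1 call ending without shRNA-1 replicate 2 (0.0585) or control replicate 2 (0.0530). Crebbp, a coactivator of SMADs, fell by 0.90 with shRNA-1 (edgeR adjusted p = 0.00274; with the covariate 0.0668), and its shRNA-2 value was -0.32 ± 0.17 (0.144), passing as lower without shRNA-2 replicate 3 (0.0176) and with total counts (0.0438). Dab2, an endocytic adaptor that links the receptors to SMADs and that macrophages express, rose with shRNA-2 to 128 ± 33.1 CPM and was at 38.4 ± 8.13 CPM with shRNA-1, against 32.2 ± 7.41 CPM in the controls (mean ± SD, n = 3 each). Its changes were 1.99 ± 0.23 with shRNA-2 and 0.25 ± 0.23 with shRNA-1 (edgeR adjusted p = 3.61e-05 and 0.412), and the hairpins differed by -1.73 ± 0.23 (0.000130).

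The list headed restraints of SMAD signalling, 24 of 24 tested, held rises and falls. It also holds regulators that can favour the signal, Usp4, Usp11, Usp15 and Ncoa3 among them. Its counts and medians are therefore not those of restraints alone. With shRNA-1, 2 rose and 5 fell, with shRNA-2, 7 rose and 7 fell, and 2 rose and 3 fell with both, at medians of -0.06 and -0.0044. Over all genes 34.7% were called with shRNA-1 and 48.7% with shRNA-2, and the calls in this list are near those shares. Skil, the close relative of Ski, was at 24.6, 25.9 and 26.9 CPM with shRNA-1 and at 28.5, 38.0 and 35.8 CPM with shRNA-2, against 18.9, 16.0 and 15.4 CPM in the controls. Unlike the shRNA-1 value of Ski, that of Skil passed as higher: its rises were 0.62 ± 0.14 and 1.02 ± 0.14 (edgeR adjusted p = 0.00624 and 0.000124), and the covariate ended the first (0.244). Smurf2, a ubiquitin ligase that acts on receptors and SMADs, rose by 0.65 with shRNA-1 and by 0.39 with shRNA-2 (edgeR adjusted p = 0.00351 and 0.0300). The covariate ended both (0.111 and 0.0927), and the shRNA-2 call also ended when replicate 3 of shRNA-2, or replicate 2 or 3 of the controls, was left out (highest 0.131), and with total counts (0.345), no filter (0.0700) or a fit of 2 groups (0.0592). Tgif1, a repressor that binds SMADs, rose by 1.14 with shRNA-2 (edgeR adjusted p = 0.000192). With shRNA-1 its value was 0.45 ± 0.17 (0.0554), and it passed as higher without shRNA-1 replicate 1, shRNA-2 replicate 1 or control replicate 1 (lowest 0.0282). It also passed with the filter of 5 CPM in 3 libraries (0.046), the replicate block (0.0322) and a fit of 2 groups (0.0372). Ncor1, a corepressor that SKI recruits, fell by 1.82 with shRNA-1 and by 1.01 with shRNA-2 (edgeR adjusted p = 0.000587 and 0.00632). With the covariate the shRNA-1 value of Ncor1 was -1.06 (adjusted p = 0.0280). For Hipk2, a kinase that can join SKI in repression, the changes were -1.22 and -0.62 (edgeR adjusted p = 0.000215 and 0.00328). Ctdsp1, a phosphatase that acts on SMADs, fell by 0.69 with shRNA-2 (edgeR adjusted p = 0.000441). Its shRNA-1 value was 0.16 ± 0.11 (adjusted p = 0.292), and the effects differed by 0.85 ± 0.11 (edgeR adjusted p = 0.000158).

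The last list held genes that TGF-beta is known to regulate in other cells. It set no direction of regulation for them, so rises in this list do not measure the activity of the pathway. Of 35 in the tables, 27 were tested. With shRNA-1, 9 rose and 4 fell, where 17.4% of all genes rose and 17.3% fell. With shRNA-2, 22 rose and 0 fell, where the shares over all genes were 24.4% higher and 24.2% lower. Under both hairpins 8 rose and 0 fell, where 9.24% of all genes rose and 9.57% fell, and the medians were 0.19 and 1.52. Cdkn1c, Nedd9 and Tsc22d1, named after their values were seen, were called lower with shRNA-1 and higher with shRNA-2. How many of all genes were called in opposite directions was not counted. Between the hairpins, 17 of the 27 were lower and 2 higher with shRNA-1, where 21.3% of all genes were lower and 19.7% higher. Tgm2, a transglutaminase that crosslinks matrix and is abundant in macrophages, was at 92.0 ± 20.5 CPM with shRNA-1 and 989 ± 140 CPM with shRNA-2, against 124 ± 34.3 CPM in the controls (mean ± SD, n = 3 each). The shRNA-2 rise was 2.995 ± 0.23 (edgeR adjusted p = 2.56e-06). The shRNA-1 value was -0.43 ± 0.22 (0.141), and it passed as lower with total counts (0.0389) or no filter (0.0247). The effects differed by -3.43 ± 0.23 (edgeR adjusted p = 1.77e-06). Atf3, a stress-induced repressor that SMAD3 can bind, rose by 2.55 ± 0.31 with shRNA-2 (edgeR adjusted p = 5.46e-05). With shRNA-1 it was at 0.41 ± 0.34 (0.374), and the effects differed by -2.15 ± 0.32 (edgeR adjusted p = 0.000279). Ccr1, a chemokine receptor of monocytes, had rises of 1.37 ± 0.23 and 1.99 ± 0.23 (edgeR adjusted p = 0.00129 and 4.23e-05), the first lost with the covariate (0.0583). Hmox1, which breaks down haem, rose by 2.06 with shRNA-1 and by 1.64 with shRNA-2 (edgeR adjusted p = 0.00832 and 0.0163). Its shRNA-1 libraries spread over 40.6, 94.4 and 221 CPM, and without shRNA-1 replicate 3 the rise was 1.25 (adjusted p = 0.0365). The covariate ended both (0.270 and 0.0866), and the shRNA-2 call ended without shRNA-2 replicate 2 (0.0510) or control replicate 1 (0.0651). Fn1, fibronectin, rose by 1.61 and 2.33 (edgeR adjusted p = 0.00985 and 0.000488), the shRNA-1 call ending without shRNA-1 replicate 2 (0.0633). Several of these targets, Tgm2 and Ccr1 among them, are also known from macrophages, and the part of the monocyte markers in this count was not tested.

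**Figure D5:**
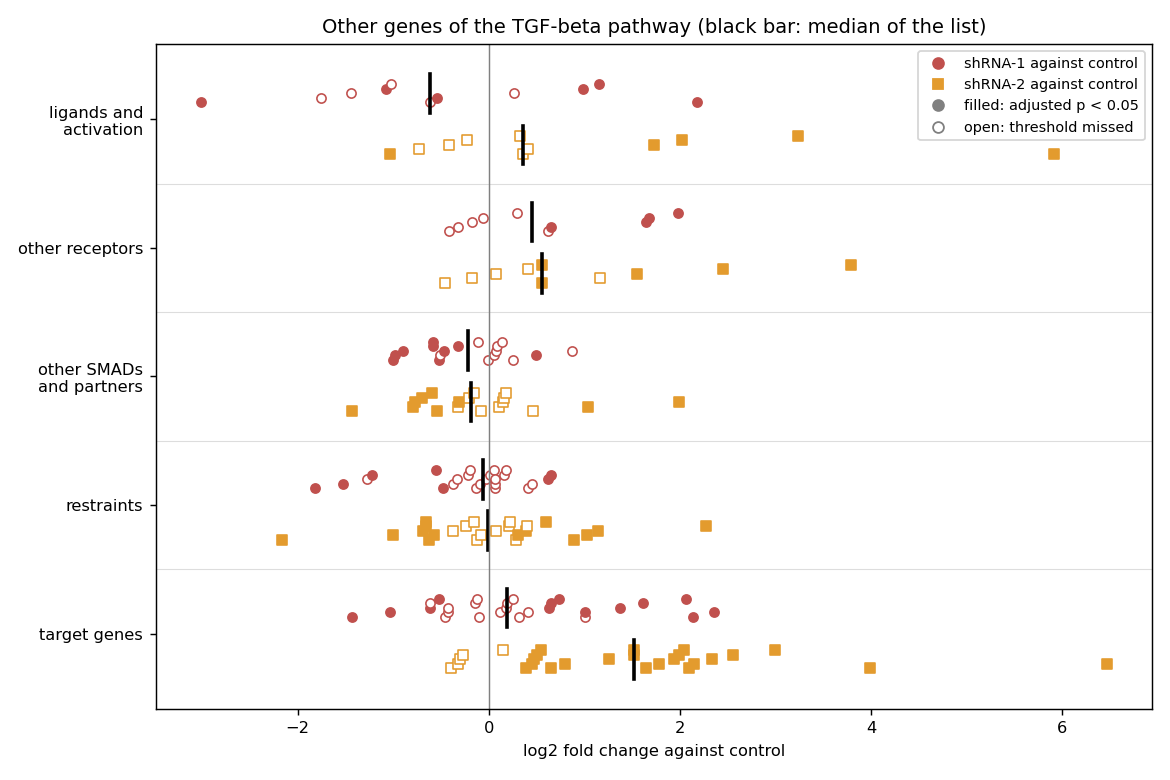
Log2 fold change against control (horizontal axis) of the tested genes of 5 pathway lists with shRNA-1 (circles) and shRNA-2 (squares). Filled symbols passed an adjusted p of 0.05, and black bars are list medians. The target genes with shRNA-2 stand to the right, at a median of 1.52, against 0.19 with shRNA-1.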

How the data were processed

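Total RNA of 9 libraries, 3 each for shRNA-1, shRNA-2 and control at day 4, was reverse transcribed from oligo-dT, with random decamers for the other strand, per the labels' protocols. The authors deposited raw counts of reads for each gene symbol, made with STAR 2.3.0e and HTSeq 0.6.0 on mm10, per the submitters' processing notes. The labels give no strand setting, annotation release or rule for multiply placed reads. The 39179 entries were summed to 38926 symbols. No entry without a gene name was found, and no 2 libraries were identical.

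Genes were kept with filterByExpr by group (12663 genes, 0.0908% of counts removed), scaled with TMM and tested with edgeR 4.0.16 (R 4.3.3) by quasi-likelihood in 1 fit of all 9 libraries with group as the term, adjusted over all genes by Benjamini-Hochberg. Standard errors are the log2 fold change divided by the root of the F statistic. The common biological coefficient of variation was 0.165. The steps were tested on simulated counts. The members, lists and tests were chosen with earlier results of these data known, and the lists came from general knowledge.

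Alternatives were DESeq2 size factors, total counts, no filter, 5 CPM in 3 libraries, DESeq2 1.42.0, a replicate block, fits of 2 groups, the log2 share of Gm26924, mt-Rnr1 and mt-Rnr2 as a covariate (Gm26924 is read as ribosomal from general knowledge only), and leaving out each library. The naming rule took the 9 members, Syncrip, for each member the 2 genes most like it, and from each list up to 3 rises and 3 falls with both hairpins and 2 genes called with 1, at a mean of at least 5 CPM. Positions came from GENCODE M21 on GRCm38. Promoter windows from RefSeq matched 6 of 9 members. The only overlapping annotated gene was a pseudogene on the opposite strand within Smad4, which has no symbol in the tables. Which megakaryocyte and erythroid markers had no count is not reported here.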

Additional observations from a re-analysis of the deposited data

Results flagged for a closer look

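The effect of knockdown differed between the 2 hairpins for 4 of the 9 genes (44.4%), in edgeR's test of the difference itself. Of all tested genes 41.0% differed, so this count does not set the pathway apart. For Tgfbr2 the difference, shRNA-1 minus shRNA-2, was -1.95, with adjusted p from 1.34e-28 to 5.47e-05 over the 17 alternatives. For Ski it was -1.27, with adjusted p from 7.89e-22 to 0.000171. For Tgfbi it was -1.92, with adjusted p from 2.87e-10 to 0.0648. For Tgfbr1 it was 0.54, with adjusted p from 0.00976 to 0.117. Syncrip itself differed by -1.68 in the same comparison.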

How the results depend on the processing

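Adding the ribosomal RNA share as covariate left 1358 calls with shRNA-1, against 4389 without it, and 835 genes called with both hairpins, against 2382. Among the 9 genes it left 1 call with shRNA-1, against 4. The shares with shRNA-1 and in the controls do not overlap, so calls lost with the covariate cannot be laid to either. With total counts in place of TMM, 5 of the 9 genes passed with shRNA-2, against 3. Of all 12663 tested genes 6335 then passed with shRNA-2, against 6162 with TMM. Leaving out 1 library gave 2916 to 5178 calls with shRNA-1, 5141 to 6432 with shRNA-2, 4028 to 5412 between the hairpins and 1558 to 2797 with both. Among the 9 genes it gave 1 to 4, 3 to 4 and 2 to 4 in the first 3 of these. The shRNA-1 calls were fewest without control replicate 3 (2916, and 1 of the 9 genes; with both hairpins 1558) and shRNA-1 replicate 2 (2925, and 1 of the 9). Without shRNA-1 replicate 3, 1 of the 9 passed with shRNA-1, without control replicate 1, 2 did, and without shRNA-2 replicate 3, 2 passed between the hairpins. These fits had fewer samples; for the covariate and the scaling the cause was not tested.

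The sign turned in 23 values of 11 genes, none of them called in either fit. With total counts, Tgfbr1 with shRNA-2 was -0.207, Smad4 was -0.0648 with shRNA-1 and -0.175 with shRNA-2, and with shRNA-1 Dab2 was -0.00936 and Ctdsp1 -0.0869. With the covariate, Tgfbr1 with shRNA-2 was -0.217, Smad4 was -0.0721 and -0.0817, and with shRNA-1 Inhba was 0.372, Atf3 -0.0170 and Tgfbr3 -0.0427. Between the hairpins the covariate gave Bambi -0.0402, Sptbn1 0.00757 and Zeb2 -0.0207. With 1 library left out, values ran from -0.136 to 0.230 for Tgfbr1 and from -0.0385 to 0.173 for Smad4 with shRNA-2, and from -0.359 to 0.716 for Tgfbr3 with shRNA-1. Between the hairpins they ran from -0.0441 to 0.272 for Bambi, from -0.0406 to 0.167 for Zeb2 and from -0.382 to 0.832 for Hmox1. With the replicate block the calls numbered 4963, 6645 and 5640, with 2780 called with both hairpins, and 4 of 111 values of the genes named gained a call (Acvrl1 and Runx3 between the hairpins, Tgif1 and Tgm2 with shRNA-1). Same-numbered libraries correlated at -0.129 to 0.335 in their deviations from group means, and since some of these were negative the numbers were not taken as pairs. A library was closest to its own number in 13 of 18 cases, and Tgfbi and the monocyte marker sum were lowest in replicate 1 of each group, which is a hint from the data that the numbers may mark something shared. Smad3, Smad7 and the Tgfbi controls rest on few reads, and the part of depth in their errors was not tested. A filter of 5 CPM in 3 libraries left 7 of the 9 genes.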

Other observations

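Some pathway genes below the level set for naming also stood apart with shRNA-2. They were chosen after their values were seen. Of them, Tgfb2, Tgfbr3 and Pmepa1 passed the filter on low counts only through the shRNA-2 libraries. Tgfb2, another TGF-beta ligand, had 0, 1 and 0 reads with shRNA-1 and 42, 71 and 90 reads with shRNA-2, against 0, 2 and 2 reads in the controls. Tgfbr3, the co-receptor betaglycan that presents this ligand, had 1, 5 and 2 reads with shRNA-1 and 36, 38 and 48 reads with shRNA-2, against 3, 5 and 3 reads in the controls. Both were nearly silent outside the shRNA-2 libraries.

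Pmepa1, a SMAD target that dampens the pathway, was at 0, 0.307 and 0.185 CPM with shRNA-1 and at 1.96, 1.70 and 2.90 CPM with shRNA-2, against 0.456, 0.332 and 0.531 CPM in the controls. Id3, an inhibitor of helix-loop-helix factors known as a target of BMP signalling, was at 2.64, 2.84 and 2.77 CPM with shRNA-1 and at 5.95, 15.2 and 8.84 CPM with shRNA-2, against 0.963, 0.729 and 0.221 CPM in the controls (edgeR adjusted p = 0.00608 for shRNA-1 and 3.06e-05 for shRNA-2). The shRNA-1 call of Id3 was lost with the ribosomal RNA covariate (log2 fold change 1.06, against 2.14 without it, adjusted p = 0.135), and the shRNA-2 value was then 3.38, against 3.99.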
